A study of Mus musculus with 18 samples.

Results

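The response of wild-type mouse macrophages to lipopolysaccharide (LPS) was followed in 5 RNA sequencing libraries. They are every wild-type library of the LPS course: 1 library of unstimulated cells and 1 library each at 0.5, 1, 3 and 8 h of LPS, out of 18 libraries in all. The cells were bone marrow-derived macrophages of C57BL/6 mice with an age label of 12 days, grown with 10% serum and 30% L929-conditioned medium, a source of the macrophage growth factor CSF1, and given 100 ng/ml LPS on day 7. No transgene, deletion or other treatment is named for these cells. The other 13 libraries were wild-type cells given TNF and cells of the RelA-TA-KI genotype, named for RelA, a subunit of NF-kB, without stimulus or given LPS or TNF.

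LPS, a component of the outer membrane of Gram-negative bacteria, is recognised by TLR4 with the help of CD14 and MD-2. The adaptor MyD88 leads to NF-kB and to MAP kinases, which act on genes already open in resting macrophages. The adaptor TRIF leads to IRF3 and the gene of interferon beta, and secreted interferon then acts on the same cells through its receptor to switch on antiviral genes. Many of the first proteins made, among them the NF-kB inhibitor IkBa and the RNA-binding protein TTP, switch the response off again.

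Each time had 1 library, and no separate animals or cultures were named. The differences below therefore have no replicate check and no p-value, and the intervals given are for counting error only. Since reads made by PCR are not independent molecules, the intervals may be too narrow even for that. The 5 libraries held 4739922 to 6721917 counts and 13941 to 15261 detected genes, both lowest at 8 h, and the 10 most counted genes took 11.7% to 13.4% of each library. Levels are counts per 1000000 (CPM) of library totals scaled by TMM, a method that sets the bulk of genes equal between libraries. A gene was tested if it had at least 50 counts over the 5 libraries, which 10678 of 45706 did. It was called higher or lower at a time when it differed at least 4-fold from unstimulated cells and the 95% counting interval of the ratio (exact conditional binomial) left out 1. For calls, counts under 3 were set to 3. Bulk RNA does not tell fewer cells of a type from less RNA per cell.

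The cells carried the macrophage markers of the label. Csf1r, Adgre1, Itgam, Cd68, Lyz2, Mertk, Spi1, Fcgr1 and Cd14 were detected in all 5 libraries, with Csf1r, the CSF1 receptor, at 869, 936, 939, 814 and 669 CPM at 0, 0.5, 1, 3 and 8 h and the lysozyme gene Lyz2 at 5912, 6259.9, 6357, 6361 and 5791 CPM. Markers of other cells passed the filter in numbers that differed by cell type, and few were called. Of 11 neutrophil markers 9 passed the filter and none was called, their summed level was 267, 368, 474, 425 and 345 CPM, and S100a9 was at 58.4, 91.2, 130.4, 130.5 and 112 CPM. Of 10 stromal markers 5 passed and none was called, with a sum of 173, 177, 179.7, 189 and 249.99 CPM. Of 11 lymphocyte markers 3 passed (Cd4, Cd79b and Il7r) and none was called, the list's sum was 119, 115, 118, 90.7 and 172 CPM, and Il7r, the IL-7 receptor, was at 69.5, 67.1, 75.3, 49.4 and 127 CPM. Of 9 mast cell markers only Kit passed, at 5.80, 7.53, 9.37, 4.47 and 1.94 CPM, while no erythroid marker did. Of 10 dendritic cell markers 4 passed and 2 were called higher at 8 h, the chemokine receptor Ccr7 at 0.618, 0.301, 0.551, 5.53 and 19.999 CPM and the peptidase Dpp4 at 0.865, 1.51, 0.919, 1.92 and 6.13 CPM. With library totals 1 dendritic cell marker was called higher and 1 lower, and 1 lymphocyte marker and Kit were called lower. Their part in the results was not tested.

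The number of genes called rose with every time. Higher were 97 genes at 0.5 h (0.908% of those tested), 211 at 1 h (1.98%), 661 at 3 h (6.19%) and 1028 at 8 h (9.63%). Lower were 1 gene at 0.5 h (0.00937%), 29 at 1 h (0.272%), 255 at 3 h (2.39%) and 792 at 8 h (7.42%). In all 1141 genes were induced, that is called higher at 1 or more times (10.7%), and 943 were repressed (8.83%). Only Napepld, Sertad3, Irs2 and 9930111J21Rik1 were both. The shares of 10.7% and 8.83% are the background for all counts of list members below. The filter counted the LPS libraries, so a gene silent in unstimulated cells passed only if it had counts under LPS. How many of the members that passed were induced is therefore partly set by the filter, most in lists with silent genes. The sides were unequal early and near equal late: 99.0% of calls were upward at 0.5 h, 87.9% at 1 h, 72.2% at 3 h and 56.5% at 8 h.

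The late balance depends on the scale. With raw library totals in place of TMM the median of all tested genes sat at -0.08, -0.16, -0.52 and -0.92 (log2) at 0.5, 1, 3 and 8 h, and calls higher against lower became 86 against 1, 188 against 35, 486 against 532 and 623 against 2037. The upward share was then 47.7% at 3 h and 23.4% at 8 h. Of the 1141 induced genes 756 were induced on this scale too, and 684 of those had the same time of peak. All 943 repressed genes were also repressed. The files hold no measure of total RNA per cell, so the scales cannot be told apart, and changes below are relative to the bulk of genes unless stated.

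**Figure D1:**
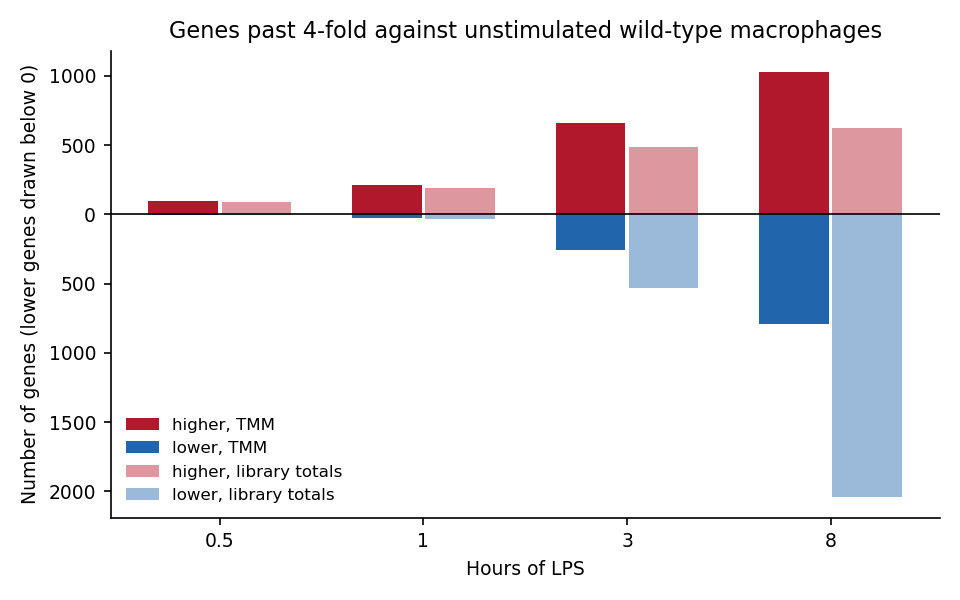
Number of genes at least 4-fold higher (red, above 0) or lower (blue, below 0) than in unstimulated wild-type macrophages at each time of LPS, 1 library per time, scaled by TMM (dark) or by library totals (pale). The bars for lower genes at 8 h reach 792 and 2037, and those for higher genes 1028 and 623.

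Induced genes took over a large part of the sequenced RNA. On raw counts, which need no scaling between libraries, the 1141 induced genes held 5.97%, 9.12%, 12.3%, 27.5% and 38.9% of the library at 0, 0.5, 1, 3 and 8 h. The 943 repressed genes fell from 5.13% to 0.534%. The antiviral enzyme gene Rsad2 went from 334 counts in unstimulated cells to 125998 at 8 h, 2.66% (95% Wilson interval 2.64% to 2.67%) of the library, the most counts of any gene there. Ifit2, Cmpk2 and Acod1 were also among the 10 most counted genes at 8 h. The lysosomal protease gene Ctsd kept a near constant scaled level (12336, 11903, 12094, 11929.7 and 11280.5 CPM) while its share of counts fell from 1.49% to 0.738%. These groups were formed from the same libraries, so the shares describe their size and are no test.

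**Figure D2:**
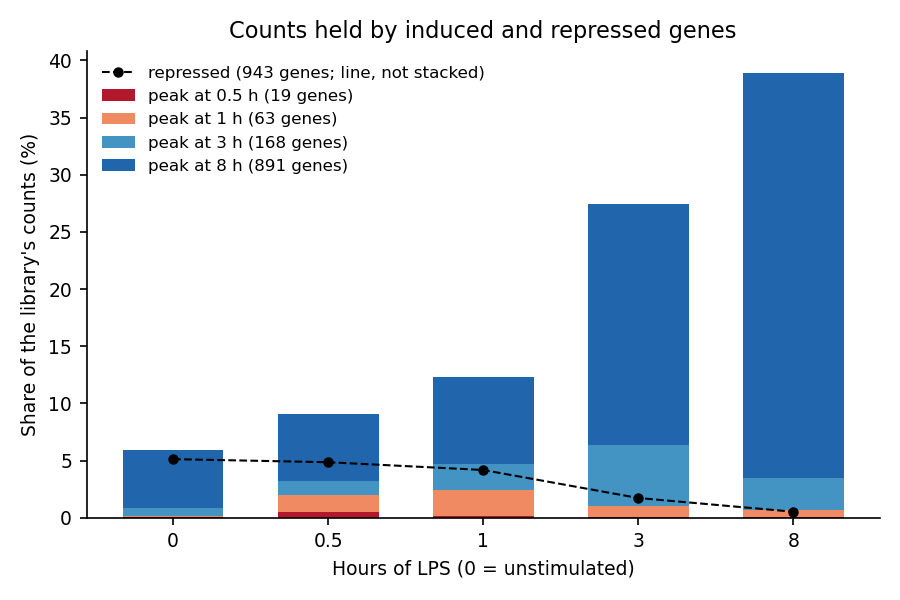
Share of each library's raw counts held by induced genes, stacked by time of peak, and by repressed genes (dashed line, not stacked), in the 5 wild-type libraries. Induced genes grow from 5.97% to 38.9%, most of it in genes with their peak at 8 h.

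By time of highest level, 19 induced genes peaked at 0.5 h, 63 at 1 h, 168 at 3 h and 891 at 8 h. The peak stood apart, with the next LPS time under 66.7% of it, in 16, 40, 87 and 739 of them. Because the course ends at 8 h, a peak there may be a rise still under way. By first passage of 4-fold, 97 genes passed at 0.5 h, 123 first at 1 h, 504 first at 3 h and 417 only at 8 h. First passage was at the time of the peak itself in 19 of 19 genes with a peak at 0.5 h, 34 of 63 at 1 h, 122 of 168 at 3 h and 417 of 891 at 8 h. Past 4-fold at all 4 times were 63 genes, and at a single time 506.

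At the receptor end of the pathway most genes were not called. Of 18 genes of the TLR4 receptor, its co-receptors and adaptors 5 were induced (4 with library totals) and none repressed, against 10.7% and 8.83% of all genes. Tlr4 itself was at 183, 167, 153, 103 and 135 CPM at 0, 0.5, 1, 3 and 8 h, and its partner Ly96 (MD-2) at 7.53, 8.29, 10.8, 13.6 and 20.6 CPM. Neither was called at any time. The co-receptor Cd14 was at 83.4, 367, 629, 653 and 639.7 CPM, and was called higher at all 4 times, the only member of the list called before 3 h. Downstream, Myd88 (45.1, 59.5, 65.4, 249.6 and 429.7 CPM), the kinase Irak2 (23.5, 28.0, 70.5, 242 and 398 CPM), the IRF kinase Ikbke (53.7, 54.9, 76.8, 315 and 737 CPM) and the inhibitory kinase homologue Irak3 (27.4, 25.2, 23.0, 38.3 and 133 CPM) all peaked at 8 h. The list's median log2 ratio was 0.07, 0.20, 0.51 and 1.36 at 0.5, 1, 3 and 8 h, and that of all genes 0.01, 0.00, -0.01 and -0.04.

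Many immediate early transcription factors were called at the first time sampled, 0.5 h. Of 25 listed 23 passed the filter, 17 were induced and Myc was repressed (15 and 2 with library totals), and 14 were already higher at 0.5 h and 8 had their peak there. Egr1, a zinc finger factor induced by ERK signalling, was at 10.0, 769, 68.0, 6.60 and 10.6 CPM at 0, 0.5, 1, 3 and 8 h, from 81, 5101, 370, 31 and 33 counts. It was 76.8-fold (95% counting interval 61.7 to 96.9) over unstimulated cells at 0.5 h, still called higher at 1 h, and not called at 3 and 8 h. Fos, a subunit of AP-1, had a similar shape with 14.9, 302, 41.5, 8.09 and 20.3 CPM. Egr2 stayed high for longer, at 2.35, 91.0, 58.8, 1.92 and 2.58 CPM. Other members came later: Junb, another AP-1 subunit, was at 30.8, 661, 678, 357 and 428 CPM and stayed high to 8 h, and the orphan receptor Nr4a3 was at 0.124, 1.05, 9.37, 55.1 and 10.0 CPM, with its peak at 3 h. Myc went the other way after a brief rise under 4-fold, at 45.7, 115, 67.1, 7.87 and 31.0 CPM.

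The other genes with their peak at 0.5 h included brakes on signalling. Dusp1 (ENSMUSG00000024190.6, chromosome 17, 26505590 to 26508519, mm10), a phosphatase of the MAP kinases p38 and JNK, was at 22.5, 821, 368, 22.8 and 149 CPM, and Dusp2 at 3.33, 124, 55.5, 76.0 and 76.8 CPM. Dusp1 was 36.5-fold (95% counting interval 31.5 to 42.6) over unstimulated cells at 0.5 h, at its starting level at 3 h and higher again at 8 h. Zfp36 (ENSMUSG00000044786.5, chromosome 7, 28376784 to 28379255), which encodes the mRNA decay factor TTP, had 2 waves, with 44.7, 1050.3, 443, 503 and 956 CPM. Its levels at 0.5 and 8 h were close, with 1 h and 3 h lower. Btg2, an antiproliferative factor (6.79, 248.9, 109, 15.96 and 26.1 CPM), the stress cytokine Gdf15 (66.9, 533, 346, 46.6 and 140.0 CPM) and Phlda1 (3.46, 67.7, 63.9, 5.75 and 8.71 CPM) were also in this class. Of 14 listed phosphatases and decay factors 10 were induced and 3 repressed (8 and 4 with library totals), against 10.7% and 8.83% of all genes. Those repressed were the ERK phosphatase Dusp6 (171, 143, 26.1, 8.73 and 11.3 CPM) and the TTP relatives Zfp36l1 (59.8, 149, 157, 13.6 and 12.6 CPM) and Zfp36l2 (177, 204, 104.9, 40.9 and 72.9 CPM). The RNase gene Zc3h12c peaked at 1 h, with 20.6, 71.3, 486, 276 and 247 CPM.

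The upstream promoter sequences of Dusp1 and Zfp36 are shown because they hold motifs found in this class, the CRE bound by CREB and ATF factors (TGACGTCA) and the CArG box bound by SRF. They are the 250 bases before the annotated start, from RefSeq on GRCm38.p6 (mm10), written 5′ to 3′ on the gene's strand with the match in capitals. The RefSeq start can differ from the end of the deposited gene coordinates given above.
Dusp1, chr17:26508473-26508722, minus strand: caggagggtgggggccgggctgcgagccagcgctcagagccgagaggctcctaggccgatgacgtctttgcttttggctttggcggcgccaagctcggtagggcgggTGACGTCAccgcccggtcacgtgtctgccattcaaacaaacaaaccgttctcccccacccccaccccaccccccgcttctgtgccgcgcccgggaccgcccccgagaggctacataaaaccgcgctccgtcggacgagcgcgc
Zfp36, chr7:28379229-28379478, minus strand: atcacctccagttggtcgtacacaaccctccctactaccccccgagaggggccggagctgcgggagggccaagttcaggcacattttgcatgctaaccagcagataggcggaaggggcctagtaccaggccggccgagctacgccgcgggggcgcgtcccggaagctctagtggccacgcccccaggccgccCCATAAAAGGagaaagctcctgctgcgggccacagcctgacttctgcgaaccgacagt
The CRE of Dusp1 lies 143 to 136 bases before the start, and the CArG box of Zfp36 58 to 49 bases before it.

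All 15 listed NF-kB subunits and inhibitors passed the filter and 14 were induced (13 with library totals). Cyld, a deubiquitinase, was not (71.3, 75.3, 68.5, 95.6 and 162 CPM). At 0.5 h 5 of the 15 were called higher, against 0.908% of all genes. In the same library 9 of 18 cytokines and 7 of 16 chemokines that passed the filter were called higher. Of the NF-kB genes some inhibitors led, but not all, since Cyld was never called and Tnip3 peaked at 8 h. Nfkbia (ENSMUSG00000021025.7, chromosome 12, 55489411 to 55492647), which encodes IkBa, was at 38.2, 1596, 1675, 1121 and 1167 CPM at 0, 0.5, 1, 3 and 8 h, and Nfkbiz, the nuclear cofactor IkBz, at 5.93, 995, 1919, 616 and 414 CPM. Nfkbia was close to its peak by 0.5 h and with TMM kept 69.0% of its rise at 8 h, whereas Nfkbiz kept 21.3%. These shares depend on the scale. The log2 ratio of Nfkbia was 5.46 at 1 h and 4.93 at 8 h with TMM, and 5.30 and 4.05 with library totals. The deubiquitinase Tnfaip3 (A20) was at 45.3, 1249.6, 1766, 1398 and 1509.9 CPM, and its partner Tnip3 climbed to the end, at 2.22, 14.3, 80.8, 298 and 629 CPM. The subunits followed more slowly and by less: Rel was at 46.9, 105.2, 355, 453 and 228 CPM, Relb at 9.26, 16.1, 62.6, 126 and 98.7 CPM, Nfkb1 at 88.4, 93.3, 137, 679 and 550.0 CPM and Rela at 62.4, 79.3, 128, 282 and 166 CPM, all with their peak at 3 h. Nfkb2 peaked at 8 h (32.4, 51.7, 129, 589.8 and 727 CPM). None of these 5 subunit genes was called at 0.5 h.

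Cytokine genes were induced as a list, in staggered order. Of 20 listed 18 passed the filter and all 18 were induced, on both scales. Il12a and Il23a had too few counts. Members near 0 in unstimulated cells, such as Il27, passed only through their LPS libraries. Tnf was at 17.2, 2456, 3001, 2913 and 2015 CPM, so that it was near its highest level from 0.5 to 3 h and 175-fold (95% counting interval 148 to 208) over unstimulated cells at 1 h. Tnfsf9, the 4-1BB ligand, was a pulse, at 7.29, 404, 748, 45.5 and 26.1 CPM. Il1b (1.24, 159, 383, 356 and 581 CPM) and Il1a (3.33, 121, 379.6, 317 and 677 CPM) were high from 0.5 h and highest at 8 h. Il6 was at 0, 0.452, 5.51, 215 and 265 CPM, Il12b, the p40 chain of IL-12 and IL-23, at 0.371, 1.96, 61.0, 502 and 510.0 CPM, and Il27 at 0.371, 1.51, 9.002, 378 and 275 CPM. These 3 had 3, 13 and 10 counts at 0.5 h, where Il12b and Il27 were called and Il6 was not. Il27 had 3 counts in unstimulated cells and was 1021-fold (95% counting interval 349 to 4957) over them at 3 h. Il1rn, the IL-1 receptor antagonist, rose last, at 31.4, 59.2, 123, 349 and 3065 CPM, and Il10 had an early and a late level, at 0.865, 6.03, 7.90, 2.77 and 44.2 CPM. Tnfsf15 was called from 1 h on, with 0.371, 0, 3.86, 325 and 165 CPM.

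Chemokine genes differed in timing. All 16 that passed the filter, of 18, were induced (15 with library totals), and all 16 were higher at 3 h and at 8 h. Cxcl1 and Cxcl9, with 0 counts in unstimulated cells, passed only through their LPS libraries. Neutrophil attractants had an early peak: Cxcl1 was at 0, 168, 312, 125 and 23.2 CPM and Cxcl2 (ENSMUSG00000058427.8, chromosome 5, 90903871 to 90905938) at 1.98, 800.0, 1105, 322 and 334 CPM. Cxcl1 had 0 counts in unstimulated cells, and with these set to 3 it was 842-fold higher at 1 h. The 95% counting interval of its ratio began at 684 and had no upper limit. Cxcl1 had 7.44% of its rise left at 8 h. Cxcl2 was 559-fold (95% counting interval 344 to 979) over unstimulated cells at 1 h. The monocyte attractants Ccl2 (383, 1099.8, 2482, 3798 and 4373 CPM), Ccl3 (119, 511, 1121, 2519 and 2799.6 CPM) and Ccl4 (99.3, 569.9, 1437, 2505 and 1277 CPM) started high and gained less. The T-cell attractant Cxcl10 was at 3.95, 146, 1022, 8768 and 7046 CPM, called from 0.5 h on and highest at 3 h. Others of this kind had their peak at 8 h, with Cxcl9 at 0, 0.151, 0.551, 222 and 357 CPM and Ccl5 at 0.865, 2.56, 43.9, 1252 and 5096 CPM. Ccl5 rested on 7, 17, 239, 5883 and 15798 counts and was 5894-fold (95% counting interval 2860.2 to 14663) over unstimulated cells at 8 h. Summed over the list, chemokines went through 1142, 4486, 9952, 23835 and 27457 CPM.

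The promoters of Nfkbia and Cxcl2 hold the kappa B motif searched here, GGGA, any base, then TTTCC, on either strand, and are shown because both genes had their peak at 1 h. In Nfkbia the match lies on the other strand, so it reads in reverse complement.
Nfkbia, chr12:55492648-55492897, minus strand: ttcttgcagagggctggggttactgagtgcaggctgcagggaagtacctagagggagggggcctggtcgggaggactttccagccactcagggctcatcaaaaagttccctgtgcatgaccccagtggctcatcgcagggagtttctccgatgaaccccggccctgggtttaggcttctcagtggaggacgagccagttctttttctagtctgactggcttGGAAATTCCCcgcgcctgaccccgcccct
Cxcl2, chr5:90903649-90903898, plus strand: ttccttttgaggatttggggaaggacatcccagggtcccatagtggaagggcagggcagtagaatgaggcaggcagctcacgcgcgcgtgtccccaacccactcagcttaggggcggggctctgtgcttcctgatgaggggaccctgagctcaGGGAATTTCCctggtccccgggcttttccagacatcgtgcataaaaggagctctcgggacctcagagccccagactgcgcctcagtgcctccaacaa
The match is 29 to 20 bases before the start in Nfkbia and 97 to 88 bases before it in Cxcl2.

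Ifnb1, the gene of interferon beta, had its peak at 1 h. It was at 0.124, 0.301, 93.0, 27.9 and 17.7 CPM, from 1, 2, 506, 131 and 55 counts, and was 753-fold (95% counting interval 134 to 29788) over unstimulated cells at 1 h. Of 17 listed genes, Ifnb1 included, 13 were induced (10 with library totals) and none repressed, 2 of them by 0.5 h (Irf1 and Socs3) and 3 by 1 h. Irf7, which amplifies interferon genes, was at 10.0, 8.44, 12.3, 426 and 3403 CPM and Stat2 at 59.9, 50.9, 38.6, 646 and 1834 CPM. Irf1 was at 24.0, 298, 535, 1761 and 1104 CPM. The brakes Socs1 (1.36, 1.51, 2.76, 179 and 114 CPM), Socs3 (5.68, 301, 517, 764 and 735 CPM) and Usp18 (4.20, 2.86, 4.41, 322 and 1077 CPM) were also high at 3 h. Irf3, which is activated as a protein, was level at 25.9, 27.7, 25.2, 27.2 and 26.8 CPM, and Ifnar1, Ifnar2 and Jak1 were not called.

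The interferon-stimulated effectors were called in large numbers from 3 h. All 35 listed genes were induced on both scales: 0 were higher at 0.5 h, 7 at 1 h, 34 at 3 h and 35 at 8 h. Their median log2 ratio was 0.04, 0.45, 5.26 and 6.15, and their summed level 853, 907, 1848, 65992 and 127043 CPM at 0, 0.5, 1, 3 and 8 h. They held 0.103% (95% Wilson interval 0.1004% to 0.105%) of the counts in unstimulated cells and 8.31% (95% Wilson interval 8.28% to 8.33%) at 8 h. Rsad2 (viperin, ENSMUSG00000020641.13, chromosome 12, 26442753 to 26456452) was at 41.3, 45.5, 321, 22789.5 and 40643 CPM, and Cmpk2 at 15.3, 13.9, 38.8, 7356 and 13772 CPM. Ifit1 (ENSMUSG00000034459.8, chromosome 19, 34640871 to 34650009), which binds foreign RNA, was at 7.29, 7.38, 136, 5040.4 and 4279 CPM, the one member with its peak at 3 h. Others rose on to 8 h: Ifi44 was at 0.124, 0.452, 0.551, 19.2 and 517 CPM, the GTPase Iigp1 at 0.741, 0.753, 0, 203 and 1248 CPM and the guanylate-binding protein gene Gbp5 at 2.35, 8.89, 147, 2297 and 4366 CPM. The 7 genes higher at 1 h were Ifit1, Ifit2, Isg15, Oasl1, Rsad2, Gbp3 and Gbp5. Ifi206 and Serpina3g, from families of near-identical copies whose reads may be split, are less certain, at 0.371, 0.753, 0, 79.4 and 523 and 0.618, 0.151, 0.551, 89.6 and 1251 CPM.

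The promoters of Ifit1 and Rsad2 are shown because they hold the interferon-stimulated response element searched here (ISRE, here TTTC, any 2 bases, then TTTC, on either strand). Rsad2 also holds an AP-1 motif (TGANTCA), the second match in its line.
Ifit1, chr19:34640639-34640888, plus strand: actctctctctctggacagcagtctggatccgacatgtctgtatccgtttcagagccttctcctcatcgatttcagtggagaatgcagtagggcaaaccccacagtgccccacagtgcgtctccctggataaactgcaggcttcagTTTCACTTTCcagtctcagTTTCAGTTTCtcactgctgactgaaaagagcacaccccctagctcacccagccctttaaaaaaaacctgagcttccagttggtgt
Rsad2, chr12:26456453-26456702, minus strand: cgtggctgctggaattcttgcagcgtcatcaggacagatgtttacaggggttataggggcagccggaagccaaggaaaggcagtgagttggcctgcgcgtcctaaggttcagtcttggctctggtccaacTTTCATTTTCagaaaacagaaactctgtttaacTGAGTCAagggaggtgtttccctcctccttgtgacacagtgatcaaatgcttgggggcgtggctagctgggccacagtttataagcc
The ISRE matches are 104 to 95 and 85 to 76 bases before the start in Ifit1 and 120 to 111 in Rsad2, where the AP-1 match is at 87 to 81.

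**Figure D3:**
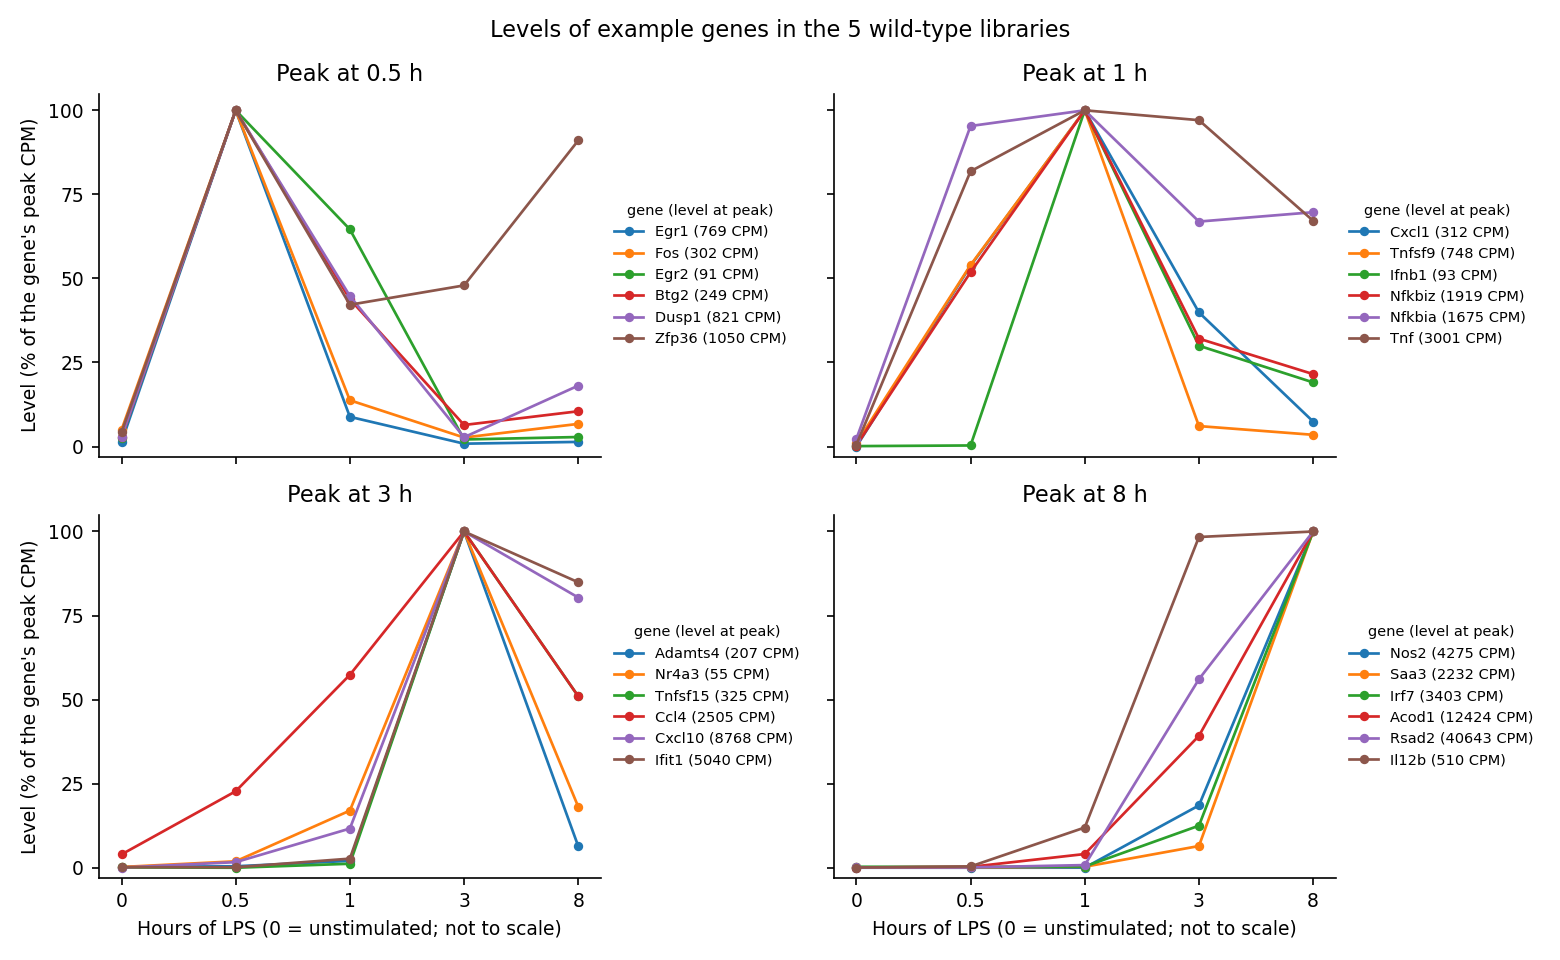
Level of 24 example genes in the 5 wild-type libraries as a percentage of each gene's highest CPM, in 4 panels by time of peak, with the CPM at the peak in the legend; points are single libraries and the time axis is not to scale. Egr1 and Fos are spikes at 0.5 h, Zfp36, Nfkbia and Tnf stay high, and the genes of the 8 h panel are near 0 at 0 and 0.5 h.

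Effector enzymes and genes of antigen presentation were mostly late. Of 26 listed effectors 25 passed the filter and 24 were induced (22 with library totals), 21 of them with their peak at 8 h. Hmox1 was not called (541, 555, 479, 289 and 687 CPM). Nos2, the inducible nitric oxide synthase, was at 0.494, 0.301, 0.735, 792 and 4275 CPM from 4, 2, 4, 3722 and 13253 counts, 8654-fold (95% counting interval 3379 to 31765) over unstimulated cells at 8 h. Acod1, which makes itaconate, started earlier, at 7.16, 32.1, 507, 4873 and 12424 CPM. Ptgs2 (COX-2) was at 5.93, 88.6, 152, 361 and 1788 CPM, the acute phase gene Saa3 at 1.73, 2.26, 6.61, 144 and 2232 CPM and complement C3 at 16.9, 26.4, 55.9, 826 and 3164 CPM.

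Of 20 listed genes of antigen presentation and costimulation 19 passed and 16 were induced (13 with library totals), 15 with their peak at 8 h. The costimulatory receptor Cd40 was at 0.371, 4.67, 30.7, 523 and 1303 CPM and the checkpoint ligand Cd274 (PD-L1) at 49.3, 68.1, 137, 2470.1 and 4394 CPM. The class I activator Nlrc5 was at 15.7, 14.8, 15.98, 248 and 718 CPM and the peptide transporter Tap1 at 30.6, 28.5, 31.6, 432 and 1244 CPM. The class II genes H2-Aa (25.1, 38.1, 41.2, 57.9 and 48.4 CPM), H2-Ab1 (27.7, 39.8, 37.5, 64.5 and 78.7 CPM) and H2-Eb1 (16.1, 30.6, 35.6, 42.8 and 34.2 CPM) were not called. The class II activator Ciita, at 2.10, 3.01, 2.57, 11.9 and 34.2 CPM, was called higher at 3 and 8 h.

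Of 19 survival and adhesion genes 14 were induced (11 with library totals). The adhesion receptor Icam1 was at 32.7, 156, 598, 2259.6 and 2309 CPM and the signalling adaptor Traf1 at 0.988, 4.52, 26.3, 175 and 712 CPM. Bcl2a1a, 1 of several near-identical copies, was at 0, 0, 1.10, 4.47 and 31.3 CPM. The proapoptotic Bcl2l11 (BIM) peaked at 1 h, at 37.7, 111, 373, 119 and 82.6 CPM.

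Duration was read for the 250 induced genes that peaked before 8 h, as the share of the rise still present at 8 h. It was at least 50% in 111 genes (sustained), 10% to 50% in 92 (partly declined) and under 10% in 47 (returned). With library totals these classes held 108, 96 and 58 genes. The shares of single genes below are with TMM and depend on the scale, since library totals shift log2 ratios by -0.51 at 3 h and -0.88 at 8 h. Of the 19 genes with their peak at 0.5 h 14 had returned and 3 were sustained, of the 63 at 1 h 22 had returned and 16 were sustained, and of the 168 at 3 h 11 had returned and 92 were sustained. Later classes had less time to decline, so these shares cannot be read as rates. Returned genes included Cxcl1 (7.44% of the rise left), Tnfsf9 (2.55%), the small GTPase Gem at 0.371, 34.2, 90.4, 14.3 and 8.71 CPM, and the protease Adamts4, a pulse at 3 h, at 0.494, 0.904, 4.23, 207 and 13.2 CPM. Returned refers to the share of the rise, so such a gene need not be back at its unstimulated level. Cxcl1, Gem and Adamts4 were still called higher at 8 h (62.7-, 23.5- and 26.8-fold, counts under 3 set to 3), and Tnfsf9 was not. Sustained ones included Cxcl10 (80.4%), Ifit1 (84.9%), Il4i1, an amino acid oxidase (0.494, 1.36, 6.98, 74.3 and 69.7 CPM), and Tnfaip3 (85.1%). Tnfaip2 (407, 905, 2328, 4186 and 2033 CPM) and Csrnp1 (8.27, 174, 392, 202 and 110.3 CPM) were partly declined. Of the 97 genes higher at 0.5 h, 88 were still higher at 1 h, 69 at 3 h and 70 at 8 h.

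**Figure D4:**
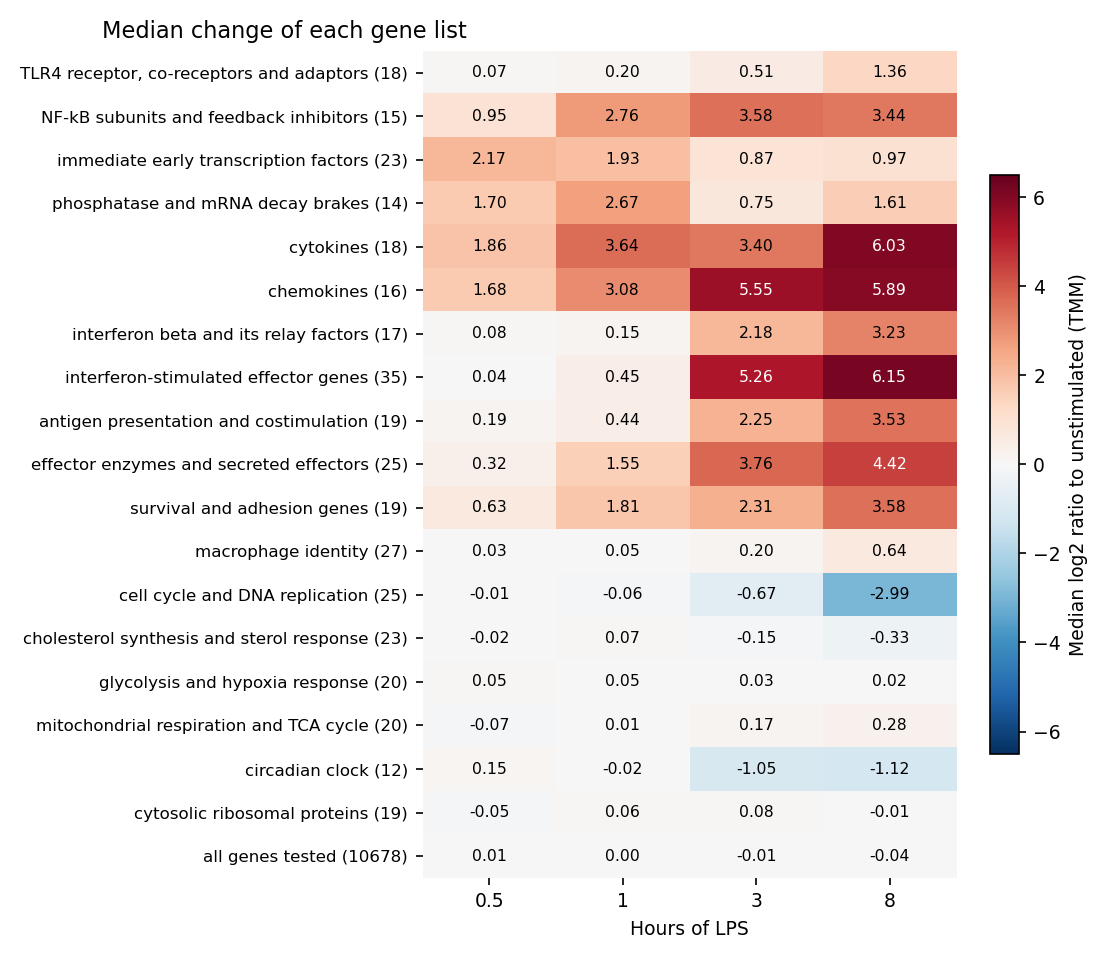
Median log2 ratio to unstimulated cells at each time of LPS (columns) for each gene list (rows, number of members that passed the filter in brackets), 1 library per time, TMM scale. Immediate early factors are highest at 0.5 h (2.17), interferon-stimulated effectors go from 0.04 at 0.5 h to 6.15 at 8 h, and cell cycle genes reach -2.99.

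Fewer genes were called lower than higher at 0.5 h (1 against 97) and at 1 h (29 against 211). Of the 943 repressed genes 0 had their lowest level at 0.5 h, 21 at 1 h, 166 at 3 h and 756 at 8 h. The trough was at 8 h in 80.2% of repressed genes, and the peak was at 8 h in 78.1% of induced genes. With library totals these shares were 87.8% and 65.3%. At least 50% of the fall had been made up by 8 h in 15 of the 21 genes with their trough at 1 h and in 32 of the 166 at 3 h. Txnip, a thioredoxin inhibitor that responds to glucose, was lowest at 1 h, at 220.0, 88.6, 27.4, 163 and 101 CPM. Regulators were among those lowest at 3 h. The BMP target Id1 was at 32.9, 17.6, 6.43, 1.92 and 3.87 CPM, and the corepressor Irf2bp2 at 132, 132, 77.2, 3.62 and 39.7 CPM, low in the 3 h library and part of the way back at 8 h. The cannabinoid receptor Cnr2 was at 36.8, 29.8, 16.7, 0.851 and 3.87 CPM, a ratio of 0.0231 (95% counting interval 0.00626 to 0.0598) at 3 h, and the receptor Cd300lb at 106, 78.4, 55.3, 4.68 and 13.9 CPM.

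Cell cycle genes were the largest listed group among those lower at 8 h. Of 26 listed 25 passed the filter and 19 were repressed (23 with library totals), against 8.83% of all genes; 3 were lower at 3 h and 19 at 8 h, and none was induced. The list's median log2 ratio was -0.01, -0.06, -0.67 and -2.99. The ribonucleotide reductase subunit Rrm2 was at 117, 118, 123, 70.0 and 6.77 CPM, cyclin E2 (Ccne2) at 47.7, 44.5, 41.7, 10.9 and 2.58 CPM and the mitotic activator Cdc20 at 31.5, 32.6, 27.6, 15.1 and 1.61 CPM. Ccne2, Cdc6 and E2f2 were already called lower at 3 h, and 6 members were not called at any time. The kinesin Kif14 went from 345 to 2 counts, a ratio of 0.0151 (95% counting interval 0.00183 to 0.0551). Ncaph (70.2, 67.1, 73.1, 41.7 and 2.26 CPM), Pimreg (39.2, 43.2, 39.9, 18.9 and 0.968 CPM), Cdca7l (40.8, 44.9, 40.4, 15.96 and 1.29 CPM) and, at 3 h, Cdca7 (27.8, 23.5, 19.1, 1.49 and 2.58 CPM) shared the trend. Pcna, the replication clamp, was among those not called (202, 175, 207, 236 and 165 CPM).

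In the macrophage identity list the counts were near those of all genes. Of 28 listed 27 passed the filter, 4 were induced at 8 h, Fcgr1 and Adgre1 among them, and 2 repressed, Cebpa among them, against 10.7% and 8.83% of all genes. With library totals 1 was induced and 3 were repressed. Fcgr1, the high-affinity IgG receptor, was at 47.2, 43.6, 40.8, 188 and 1606 CPM and Cebpa, a myeloid transcription factor, at 96.7, 80.6, 57.0, 7.45 and 5.16 CPM. Cebpa was called lower at 3 and 8 h. Adgre1 (F4/80) was at 618, 655, 656, 1061 and 3080.2 CPM.

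In the clock list 12 of 15 genes passed the filter, 5 were repressed (7 with library totals) and none induced, against 8.83% and 10.7% of all genes. Bhlhe40 was at 103, 82.4, 116, 18.3 and 21.9 CPM, Dbp at 11.7, 6.33, 5.51, 2.13 and 4.19 CPM and Nr1d1 (REV-ERBa) at 4.32, 3.92, 4.04, 0 and 1.29 CPM, with 0 counts at 3 h. Time of day and time of LPS cannot be told apart. In the cholesterol list of 23 genes 3 were repressed, Scd2 and Stard4 among them, and 2 induced (Ch25h and Abcg1), close to the 8.83% and 10.7% of all genes. In it 7 were repressed and 1 induced with library totals. The desaturase Scd2 was at 1645, 1426, 1339, 856 and 132 CPM, the sterol carrier Stard4 at 193, 197, 202, 99.8 and 27.4 CPM, and Ch25h, which makes 25-hydroxycholesterol, at 0.247, 0.753, 4.23, 10.2 and 42.6 CPM.

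Other housekeeping lists were close to the median of all genes. Of 20 glycolysis and hypoxia genes Pfkfb3, an activator of glycolysis, was the one called (68.8, 69.0, 95.7, 103 and 602 CPM), and the list's median log2 ratio at 8 h was 0.02. Of 20 mitochondrial genes Ppargc1b was the one called, at 3 h (4.45, 8.74, 4.41, 20.01 and 5.48 CPM). It was not called with library totals. Of 19 ribosomal protein genes none was called, and Rpl4 was at 542, 535, 593, 566 and 488 CPM. With library totals 2, 1 and 2 genes of these 3 lists were repressed, and their medians at 8 h were -0.86, -0.60 and -0.89, near the -0.92 of all genes. The actin gene Actb, often used as a reference, was at 5560.2, 5699, 6106, 9415 and 22665 CPM. It was 4.08-fold higher at 8 h with TMM and at a log2 ratio of 1.15 with library totals, where it was not called.

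Genes of the first wave were short. The genomic span, from the first to the last annotated base, had a median of 2.62 kb in the 19 genes with their peak at 0.5 h, and all 19 were under 10 kb. It was 16.4 kb for a peak at 1 h, 34.3 kb at 3 h and 21.8 kb at 8 h, against 23.7 kb for all tested genes, of which 23.9% were under 10 kb. By first passage of 4-fold the medians were 5.93 kb for the 97 genes at 0.5 h (72.2% under 10 kb), 17.8 kb at 1 h, 24.2 kb at 3 h and 27.4 kb at 8 h. Among genes with a peak before 8 h, those that had returned had a median of 10.2 kb and those sustained 34.5 kb. Repressed genes with a trough at 8 h had a median of 28.1 kb. Span played no part in forming the classes.

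**Figure D5:**
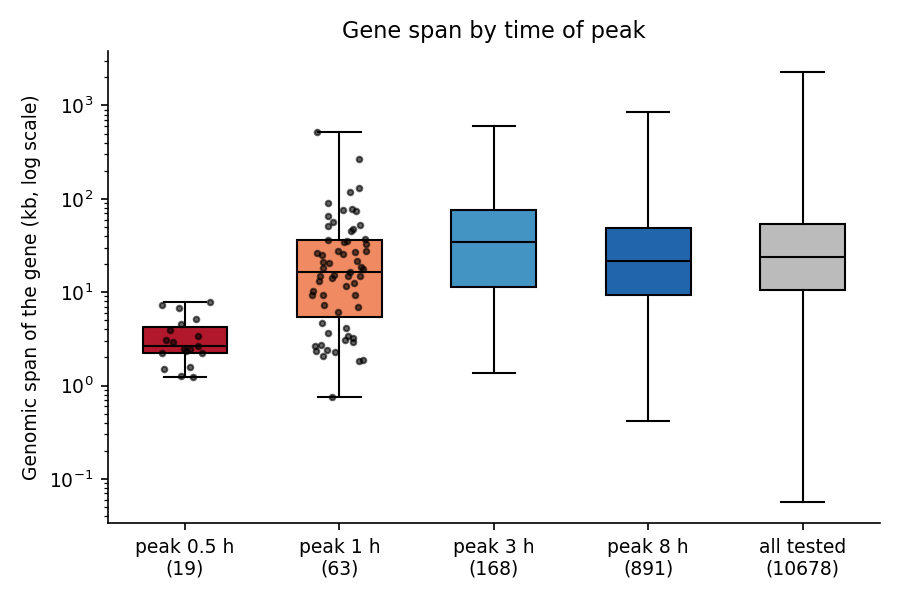
Genomic span of induced genes by time of peak and of all tested genes, in kb on a log axis; boxes give the quartiles and median, whiskers the full range, and dots single genes in the 2 smallest classes. All 19 genes with a peak at 0.5 h lie under 10 kb, and the medians are 2.62, 16.4, 34.3 and 21.8 kb by peak and 23.7 kb for all tested genes.

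Promoter motifs were counted in windows of 300 bases, 250 before to 50 after the RefSeq start, on both strands, for 8508 tested genes in the RefSeq table, 68 of the 92 named genes among them. The ISRE was present in 4.09% of all tested genes and 3.99% of all genes in the table, in 107 of 682 genes with their peak at 8 h (15.7%), in 3.01% of those at 3 h and in 0 of 12 at 0.5 h. By first passage it was in 5.63% of genes at 0.5 h, 12.8% at 1 h, 16.5% at 3 h and 10.5% at 8 h. The kappa B motif was rare, in 0.529% of tested genes and 0.466% of the table. It was found in 3 of 50 genes with their peak at 1 h, which were Cxcl1, Cxcl2 and Nfkbia. At 0.5, 3 and 8 h it was in 0 of 12, 3 of 133 and 9 of 682. The CRE was in 3.78% of tested genes and 2.03% of the table. By peak it was in 2 of 12 genes at 0.5 h (Btg2 and Dusp1), 7 of 50 at 1 h, 4 of 133 at 3 h and 17 of 682 at 8 h. AP-1 motifs were in 5.96% of tested genes and 8.97% of the table. By peak at 0.5, 1, 3 and 8 h they were in 0 of 12, 9 of 50, 9 of 133 and 68 of 682. A CArG box was in 1.504% of tested genes and 1.81% of the table. By peak it was in 2 of 12 (Egr2 and Zfp36), 1 of 50, 6 of 133 and 11 of 682. Searches were separate, and matches of different motifs may overlap. A match is a stretch of letters and not a bound site, and classes of 12 and 50 genes give coarse shares.

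The LPS course of RelA-TA-KI cells, against their own unstimulated library, gave values from other libraries for the same genes. Genes called higher in wild-type had median log2 ratios of 3.08, 3.17, 3.22 and 3.26 in wild-type at 0.5, 1, 3 and 8 h and of 1.85, 2.05, 2.74 and 3.31 in the knock-in. The sign was the same in 84 of 97, 202 of 211, 656 of 661 and 1020 of 1028. These genes were chosen by their wild-type values. For the 59, 140, 603 and 1113 genes called higher in the knock-in the medians were 3.53, 2.91, 3.09 and 2.99 in wild-type and 3.00, 2.73, 3.05 and 3.29 in the knock-in. Time of peak matched for 12 of 16 genes induced in both with a wild-type peak at 0.5 h, 27 of 48 at 1 h, 71 of 122 at 3 h and 730 of 756 at 8 h. Egr1 at 0.5 h had log2 ratios of 6.26 in wild-type and 6.22 in the knock-in, Nfkbia 5.39 and 3.02, and Tnfaip3 4.78 and 1.54. Rsad2 at 8 h had 9.94 and 9.78. With 1 library per genotype and time these differences were not tested.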

How the data were processed

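RNA was measured in 5 wild-type libraries of the LPS course. Per the labels' protocols, poly(A) RNA was made into libraries with the KAPA Stranded mRNA-Seq kit, with 12 cycles of PCR, and 50 bases were sequenced from 1 end. The table the authors deposited holds raw counts per gene with no normalization. The build mm10 and the tools cutadapt 1.12, STAR, featureCounts 1.5.0 and DESeq2 come from the submitters' processing notes, which name them without roles. How strand was counted, and with which annotation, is not given in the sources; overlapping, antisense and near-identical genes are therefore less certain. Symbols were found for all but 563 of 45706 identifiers.

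TMM factors came from edgeR 4.0.16 in R 4.3.3, over all 18 libraries and 11308 genes that passed its expression filter (count 10, total 15). CPM are counts per 1000000 of the scaled total. Ratios were taken to the unstimulated library with counts under 3 set to 3, so a fold against 0 counts is a ratio to 3 counts. From 1 to 3 counts the unfloored ratio is given with its interval. Intervals of ratios are exact conditional binomial (scipy 1.17.1), and those of shares are Wilson intervals, both at 95%. The code for calls and classes was run on simulated counts with counting error only and a change at 1 time. That run cannot show how far calls from 1 library would repeat. No test between groups was possible with 1 library per time.

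Named genes were the 8 with the largest ratio and the 4 with the largest rise per peak time (peak of at least 10 CPM), the 6 with the largest fall per trough time (from at least 10 CPM), up to 3 called members per list with the largest change (the most abundant where none was called), and the 4 with the largest ratio per duration class. Gene models without a proper symbol were left out. List members outside this rule, and the genes listed by name in counts of 7 or fewer, were chosen after their values were seen. The members and the 24 lists, written from textbook knowledge, were chosen with earlier results of these data known. Alternatives were library totals, DESeq2 1.42.0 size factors, TMM over the 5 libraries, other filters, folds of 2 and 8, a prior count, no counting interval, other shares, separated peaks and leaving out a time. The TNF libraries were used for scaling only. Values of some list members are not reported here.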

Additional observations from a re-analysis of the deposited data

How the results depend on the processing

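With library totals, lower genes numbered 532 at 3 h and 2037 at 8 h, higher genes at 8 h 623, peaks at 8 h 494 and troughs at 8 h 1933. Without a filter on low counts 2 genes were lower at 0.5 h, 1 with its trough there, and a prior count of 0.5 also placed 1 trough at 0.5 h. With at least 250 counts over the 5 libraries, lower genes numbered 0, 5 and 143 at 0.5, 1 and 3 h, and troughs 3 at 1 h and 97 at 3 h. At 2-fold, higher genes numbered 193, 455, 1318 and 2026 and lower genes 35, 211, 1058 and 2190 at 0.5, 1, 3 and 8 h, peaks 38, 122, 360 and 1759, troughs 13, 111, 516 and 1995, and the sustained, partly declined and returned genes 226, 176 and 118. At 8-fold, higher genes numbered 51, 115, 362 and 590 and lower genes 0, 5, 48 and 252, peaks at 1, 3 and 8 h 38, 86 and 513, troughs at those times 3, 37 and 247, and the duration classes 59, 51 and 28. Without the 8 h library 623 genes peaked at 3 h, since the genes that go on rising then end there. Leaving out the counting interval changed none of the counts of calls, peaks, troughs or durations. Separated peaks numbered 40 at 1 h and 87 at 3 h. With shares of 25% and 75% as limits 57 genes were sustained and 81 returned. Apart from the effects that other folds, filters and classes have by construction, the cause was not tested. No call of a named gene reversed. Library totals moved 37 of the 92 named ratios outside their counting interval, and DESeq2 size factors and TMM over the 5 libraries moved 1 each.

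No paired analysis was possible because each group had 1 library and its replicate number is only a name. Depth limits low genes most: 3 counts correspond to 0.371 CPM in the unstimulated library and 0.968 CPM at 8 h, so lower levels cannot be told from absence. Each value rests on 1 library, and the spread between cultures is unknown. Leaving out a library removes its time, so 1 library decides every value.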

Other observations

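Genes of zinc finger proteins stood out among the few genes lowest at 1 h, a group noticed after the values were seen. Of the 21 genes with their trough at 1 h, 11 (52.4%) had a symbol of the form Zfp and a number, against 243 of 10678 tested genes (2.28%), 5 of 166 genes with a trough at 3 h and 11 of 756 at 8 h. Most proteins with such names bind DNA through zinc fingers, and many carry a KRAB repression domain. All 11 were low before LPS: Zfp60, the highest, had 85, 30, 11, 24 and 24 counts at 0, 0.5, 1, 3 and 8 h, and Zfp157 had 72, 41, 4, 16 and 14. Zfp39 was the single gene lower at 0.5 h. The median log2 ratio of the 11 was -0.83, -2.60, -0.47 and -0.44 at 0.5, 1, 3 and 8 h, which describes how they were selected. Zfp genes as a whole had medians of -0.13, -0.52, -0.32 and -0.09 at these times, and 198 of 243 (81.5%) were below 0 at 1 h, against 50.4% of all tested genes. The 243 include the 11 and were taken up because of them, so their wild-type values are no independent check. In the RelA-TA-KI libraries, which were not used to choose them, the 11 genes had a median of -1.55 at 1 h with 11 of 11 below 0, and all 243 a median of -0.51 with 197 (81.1%) below 0. With at least 250 counts over the 5 libraries only 3 genes keep a trough at 1 h, Txnip, Sertad3 and 9930111J21Rik1. None of the 11 Zfp genes is among them, so the group rests wholly on low counts.

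A brief dip at 1 h also came before a late rise in a few genes. Sertad3 was at 54, 28, 9, 122 and 138 counts and 9930111J21Rik1 at 61, 38, 10, 161 and 188 counts at 0, 0.5, 1, 3 and 8 h, so both were lower at 1 h and higher later. In the knock-in course their log2 ratios were -1.68 and -1.87 at 1 h and 3.51 and 3.19 at 8 h. These 2 genes were chosen after their values were seen.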
